A study of Mus musculus with 2 samples.

Results

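Nuclei of Cre- retina that the deposited annotation calls cones were examined here across all genes. They were taken as the nuclei of the Cre- library whose cell type entry reads cones. There were 265 such nuclei among the 7357 of that library, a share of 3.60% (exact binomial 95% interval 3.19 to 4.05%), and among 14123 nuclei in the 2 libraries together. Of the 265, 264 belonged to cluster 11 of the deposited clustering, which held 0 nuclei of the other library, and 1 belonged to cluster 46.

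Single-nucleus RNA sequencing had been carried out on whole mouse retina (strain label C57 BL/6J) at postnatal day 21, with 1 library for each of 2 genotypes. In the Tet tcKO library the floxed Tet1, Tet2 and Tet3 genes, which encode the enzymes that oxidise 5-methylcytosine, had been deleted with a Chx10-Cre-GFP transgene that is active in retinal progenitors and is known to be mosaic. To reduce the mosaicism, Cre-positive animals had been crossed with each other to give 2 copies of the transgene. The Cre- library, labelled WT, came from age-matched retinas of Cre- breeders, without that transgene. Retinas of several animals had been pooled and homogenised before capture. The paper describes 2 independent pools of nuclei for each genotype, of at least 2 animals each. The animal of origin was not recorded for each nucleus. With 1 library per genotype there is no replicate, so the values below carry no p-value, and their 95% intervals are exact Poisson or binomial intervals that cover counting error and nothing else.

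Rods and cones are the 2 light-sensing cell types of the retina. Both turn photon capture into closure of cyclic nucleotide-gated channels by the same cascade of opsin, transducin, phosphodiesterase and channel, but with separate genes for most steps: rods use Gnat1, Pde6a, Pde6b and Cnga1, and cones use the opsins Opn1sw or Opn1mw, Gnat2, Pde6c, Pde6h, Cnga3 and Cngb3. The rod programme is set by the transcription factors Nrl and Nr2e3, whereas Thrb and Rxrg act in cones. Rods far outnumber cones in the mouse retina.

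The cone-annotated nuclei held cone transcripts within or slightly above the range of single rod clusters and mostly far below the cones of the other library, and they held rod transcripts at the level of rods or above. They are therefore called by their annotation throughout. They were deep for photoreceptor nuclei. The total per nucleus, counted in unique molecular identifiers (UMIs, each of which marks 1 captured transcript), ran from 679 to 8084 with a median of 3736, and the genes detected per nucleus ran from 531 to 4000 with a median of 2249. Over all 265 nuclei there were 1031382 UMIs. The 5214 rod-annotated nuclei of the same library had a median total of 1025.5, and 5021 of them (96.3%) fell within the range of totals of the cone-annotated nuclei. Of the 14 rod clusters with at least 50 such nuclei, the deepest, cluster 9, had a median of 2597. No barcode of a cone-annotated nucleus occurred in the Tet tcKO library, and 1 barcode was shared by the 2 libraries in all.

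Each cone-annotated nucleus was therefore paired with the unused rod nearest to it in total, which gave 265 depth-matched rods with 836776 UMIs. They ran from 680 to 7231 UMIs with a median of 3105, so the pairing was incomplete at the deep end: the median gap within a pair was -16.3% and the largest -31.4%. Levels are given as counts per 1000000 UMIs (CPM) summed over the nuclei of a population, and differences as log2 of the ratio of 2 such levels. After every nucleus had been thinned to 1000 UMIs, the cone-annotated nuclei held a median of 794 genes and the matched rods 774.5, with 15 shallower nuclei left out of each. Most of the difference in detected genes thus went with depth.

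The 4 genes named as markers of this population were Arr3, Pde6a, Tafa4 and Glb1l2. Since nuclei were assigned to clusters by their expression, and these genes were picked with results of these data known, their values describe the population and test nothing. Arr3 encodes cone arrestin, which ends the light response of cone opsin, and lies on chromosome X (GRCm39, chrX:99649101-99662099, plus strand). Its lowest, median and highest counts per nucleus were 0, 3 and 12 in cone-annotated nuclei and 0, 2 and 8 in matched rods. The ranges of single nuclei overlapped almost completely. Summed, Arr3 stood at 880 CPM (824 to 940) against 696 (640 to 754), a log2 ratio of 0.34 (0.19 to 0.49), and single rod clusters ranged from 514 to 968 CPM. The cone-annotated level thus lay inside the spread between rod clusters of the same library. Arr3 was at 2003 CPM in the 3225 nuclei annotated as cones in the Tet tcKO library and at 222 CPM in the 403 amacrine nuclei of the Cre- library, which should lack it.

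Pde6a encodes the alpha catalytic subunit of the rod phosphodiesterase and is a rod gene. Its counts per nucleus were 0, 4 and 18 (lowest, median and highest) in cone-annotated nuclei and 0, 2 and 11 in matched rods. Its level was 1197 CPM (1132 to 1266) against 834 (773 to 898), higher by 0.52 on the log2 scale (0.39 to 0.66) and above each of the 14 rod clusters, of which the highest reached 980 CPM. In Tet tcKO cones Pde6a stood at 286 CPM. Glb1l2, which encodes a protein related to beta-galactosidase, was counted 0, 1 and 4 times per nucleus in cone-annotated nuclei and 0, 0 and 4 times in matched rods. Its level was 240 CPM (211 to 272) against 128 (105 to 155), a log2 ratio of 0.91 (0.58 to 1.25), with the highest rod cluster at 180 CPM. The difference in Glb1l2 was spread over nuclei, since 150 of 265 cone-annotated nuclei held at least 1 UMI of it against 81 of 265 matched rods.

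Tafa4 (chr6:96808164-97057174, minus strand), which encodes a secreted chemokine-like protein, had most of its UMIs in a single nucleus. It had the largest ratio of the 4, 135 CPM (113 to 159) against 25.1 (15.5 to 38.4), or 2.42 on the log2 scale (1.76 to 3.16). Of its 139 UMIs, 104 (74.8%) lay in 1 nucleus with a total of 5682 UMIs, while the next nucleus held 2 and 34 of 265 held any. Without the highest nucleus of each group the log2 ratio of Tafa4 was 0.58.

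**Figure D1:**
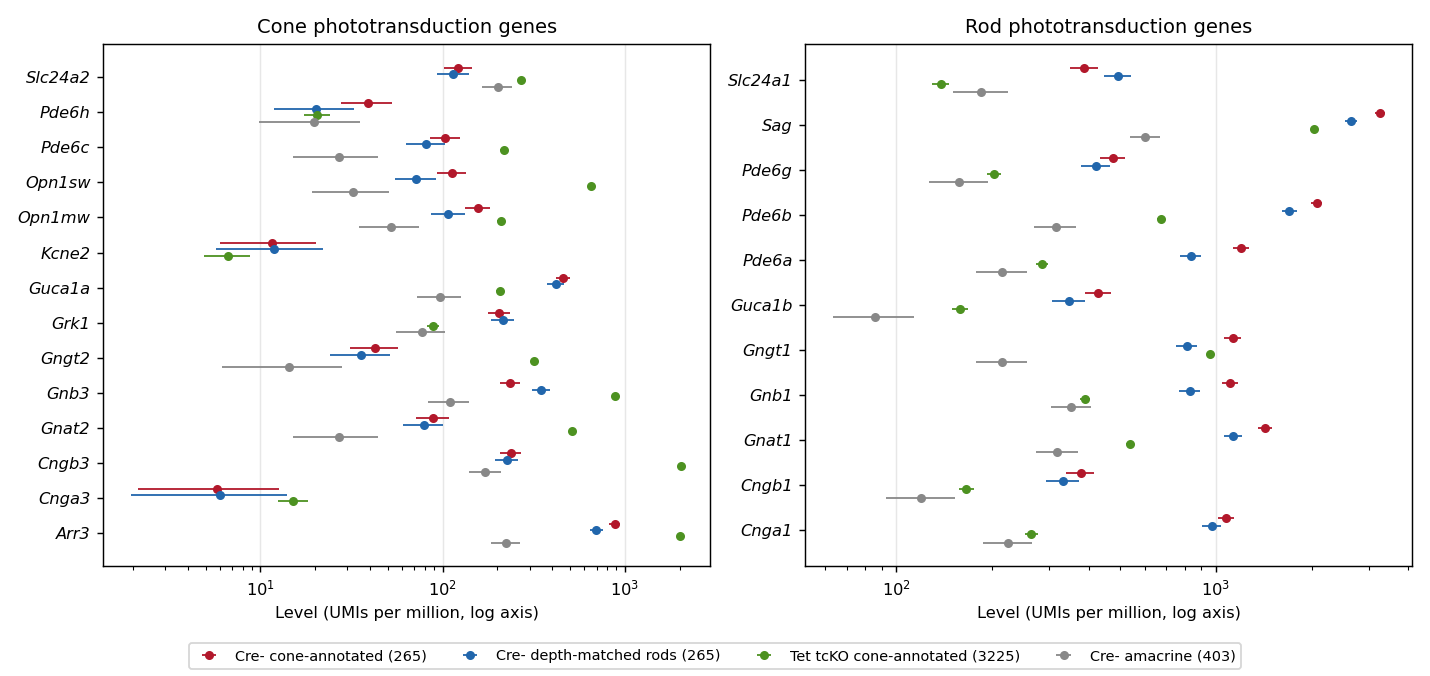
Levels (UMIs per 1000000, log axis) of cone phototransduction genes (left panel) and rod phototransduction genes (right panel) in Cre- nuclei annotated as cones, depth-matched rods, Tet tcKO cones and Cre- amacrine nuclei. Points are summed levels and bars are 95% Poisson intervals (counting error only). The cone-annotated nuclei lie beside the matched rods for cone genes such as Cngb3 (237 and 225 CPM), while Tet tcKO cones reach 2043 CPM.

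At full depth the cone phototransduction genes were little different from matched rods. Of 14 genes listed, all were measured and 13 reached 10 CPM in at least 1 of the 2 groups. Their median log2 ratio was 0.16, against 0.06 over all 11044 genes at that level, with members from -0.56 to 0.93. Over the alternatives this median ran from 0.06 (all rods in range) to 0.46 (thinned to 1000 UMIs). The interval lay wholly above 0 for 4 of the 13 (Arr3, Opn1sw, Opn1mw and Pde6h) and wholly below 0 for 1 (Gnb3), while over all 11044 genes it lay above for 9.51% and below for 6.49%. Summed, the 14 genes stood at 2697 CPM in cone-annotated nuclei, 2427 in matched rods, 1934 to 3071 over single rod clusters, and 7453 in Tet tcKO cones. Not every member was higher in Tet tcKO cones. Guca1a stood at 460 CPM in cone-annotated nuclei, 417 in matched rods and 206 in Tet tcKO cones, so the sum is not one of cone-restricted genes alone.

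Beside Arr3, the 2 cone opsins and Pde6h were the cone genes higher than in matched rods by more than counting error. Opn1sw, the short-wavelength opsin, was counted at most 3 times in any nucleus of either group, with a median of 0 in both. Its level was 112 CPM (92.9 to 135) against 71.7 (54.7 to 92.3), a log2 ratio of 0.65 (0.19 to 1.12), and the highest rod cluster stood at 99.4 CPM. Opn1mw, the middle-wavelength opsin, stood at 156 CPM (133 to 182) against 108 (86.5 to 132), higher by 0.54 (0.16 to 0.93). Both exceeded every rod cluster, Opn1mw narrowly (the highest cluster stood at 155 CPM). In the 82 pairs within 5% of each other in total, Opn1sw turned to a log2 ratio of -0.11. Pde6h, the inhibitory subunit of the cone phosphodiesterase, had 40 UMIs against 17 and the highest ratio of the list, 0.93 (0.08 to 1.84), and at 38.8 CPM it lay inside the range of rod clusters, which reached 72.8 CPM. In Tet tcKO cones Opn1sw reached 653 CPM and Opn1mw 208 CPM.

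For the cone transducin, phosphodiesterase and channel subunits Gnat2, Pde6c and Cngb3 the interval of the log2 ratio included 0. Gnat2, the cone transducin alpha subunit, stood at 88.2 CPM against 78.9, a log2 ratio of 0.16 (-0.31 to 0.64). Cngb3, the beta subunit of the cone channel, stood at 237 CPM against 225 (0.07, -0.21 to 0.36), and amacrine nuclei held 172 CPM of it. Pde6c, the cone phosphodiesterase, stood at 104 CPM against 81.3 (0.35, -0.10 to 0.81). The bounds of these 3 genes leave room for moderate differences. Gnb3, the cone transducin beta subunit that bipolar cells also use, was lower, with 236 CPM (207 to 267) against 348 (309 to 390), a log2 ratio of -0.56 (-0.81 to -0.31). Over the same genes the Tet tcKO cones stood far higher: Gnat2 was at 515 CPM, Cngb3 at 2043 CPM, Pde6c at 218 CPM and Gnb3 at 887 CPM.

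The transcription factors of cones were also close to matched rods. Of 8 listed, 5 reached 10 CPM, with a median log2 ratio of 0.21. Thrb, the thyroid hormone receptor needed for the middle-wavelength opsin, stood at 403 CPM (366 to 444) against 354 (315 to 396), a log2 ratio of 0.19 (-0.03 to 0.41), inside the rod clusters' 268 to 442 CPM. Rorb, a nuclear receptor used by both photoreceptor types, stood at 560 CPM against 485 (0.21, 0.02 to 0.39), just above the highest rod cluster at 559 CPM. Neurod1, a factor of photoreceptor differentiation, stood at 340 CPM against 290 (0.23, -0.01 to 0.47), with the highest rod cluster at 316 CPM, and turned to -0.27 in the pairs within 5%. Rxrg, a partner of Thrb in cones, was counted 4 times in all cone-annotated nuclei together and 6 times in the matched rods, and stood at 41.9 CPM in Tet tcKO cones.

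Rod phototransduction genes were as high as in matched rods or higher. All 12 listed were measured, their median log2 ratio was 0.30, and 11 of 12 lay above the median of all genes. The interval lay above 0 for 9 and below 0 for 1, and over all 4792 genes at 50 CPM it lay above for 16.1% and below for 11.1%. The 12 genes summed to 16346 CPM against 12841 in matched rods, 11013 to 14419 over single rod clusters and 7096 in Tet tcKO cones. The direction turned in 1 alternative, in which each gene counted at most once per nucleus (median -0.20), a measure that saturates for genes present in nearly every nucleus.

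Sag, the arrestin that ends the rod response, was found in every cone-annotated nucleus. Its counts per nucleus were 1, 12 and 39 (lowest, median and highest), against 0, 8 and 25 in matched rods. It stood at 3262 CPM (3152 to 3374) against 2643 (2534 to 2756), a log2 ratio of 0.30 (0.23 to 0.38). Gnat1, the rod transducin alpha subunit, was counted 0, 5 and 16 times per nucleus against 0, 3 and 11, at 1427 CPM against 1132 (0.33, 0.22 to 0.45). Of the 12 genes 7 stood above each of the 14 rod clusters, Sag, Gnat1 and Pde6b among them. Over all 4792 genes at 50 CPM or more, 746 (15.6%) did so, and 260 (5.43%) stood below every rod cluster. The exception in the other direction was Slc24a1, the rod sodium, calcium and potassium exchanger, at 388 CPM against 492, a log2 ratio of -0.34 (-0.55 to -0.14).

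Rod transcription factors were also present at rod levels. The median log2 ratio of the 8 listed genes was 0.26, and they summed to 3361 CPM against 3021, with 1775 in Tet tcKO cones. Nrl, which directs photoreceptor precursors to the rod fate, was found in 217 of 265 cone-annotated nuclei, with counts of 0, 2 and 9. It stood at 550 CPM (505 to 597) against 441 (397 to 488), a log2 ratio of 0.32 (0.13 to 0.51). Nr2e3, which represses cone genes in rods, stood at 338 CPM (304 to 376) against 364 (325 to 408), a log2 ratio of -0.11 (-0.33 to 0.12). In Tet tcKO cones Nrl was at 221 CPM and Nr2e3 at 143 CPM. Samd7, a rod chromatin repressor, had the highest ratio of the list, 0.71 (0.30 to 1.13), and Casz1 the value nearest to 0, 0.00 (-0.13 to 0.14).

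No cone-annotated nucleus held more than 8 UMIs of the genes chosen to stand for cones. For each nucleus the UMIs of 9 cone genes (Opn1sw, Gnat2, Gngt2, Pde6c, Cngb3, Rxrg, Pde6h, Cnga3 and Kcne2) were summed. Among cone-annotated nuclei the sum was 0, 2 and 8 (lowest, median and highest), with 226 of 265 nuclei at 1 or more, and among matched rods it was 0, 1 and 7. In Tet tcKO cones it was 0, 7 and 50 at a median total of 1715, against 3736 in cone-annotated nuclei. The variance of the sum over the variance that counting alone gives at each nucleus's depth was 0.91 in cone-annotated nuclei, so these sums spread no more than draws from 1 common level. As a level, the 9 genes stood at 644 CPM in cone-annotated nuclei, above the 494 to 633 of single rod clusters by less than counting error, 538 in matched rods, 295 in amacrine nuclei and 3832 in Tet tcKO cones. The nucleus of cluster 46, with a total of 814 UMIs, held 2 UMIs of the 9 genes, 1 of Arr3 and 0 of Pde6a.

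**Figure D2:**
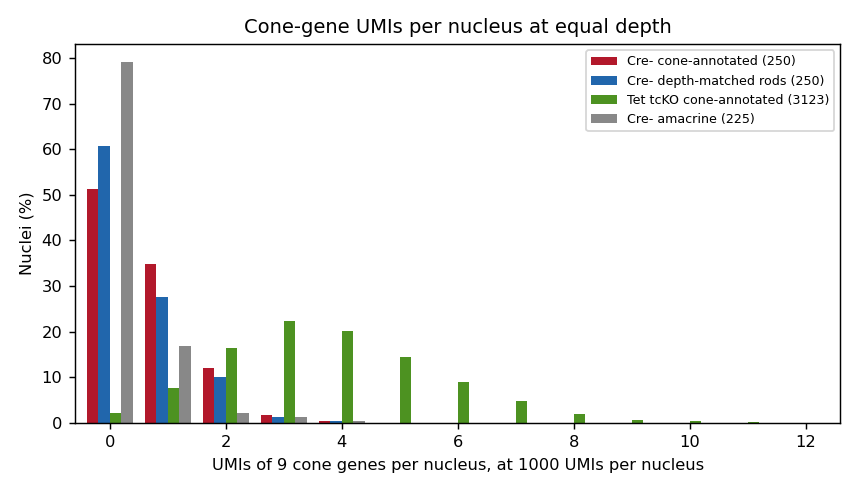
Share of nuclei (percent) by the number of UMIs of 9 cone genes, after each nucleus was thinned to 1000 UMIs, for Cre- nuclei annotated as cones, matched rods, amacrine nuclei and Tet tcKO cones. The cone-annotated nuclei and the matched rods pile up at 0 and 1, whereas 97.8% of Tet tcKO cones hold at least 1.

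Shares of nuclei with a transcript were compared after thinning to 1000 UMIs, which left 250 cone-annotated nuclei (median total before thinning 3855), 250 matched rods (3179), 3123 Tet tcKO cones and 225 amacrine nuclei. At least 1 UMI of the 9 cone genes was held by 48.8% of cone-annotated nuclei (42.5 to 55.2%), 39.2% of matched rods (33.1 to 45.6%), 97.8% of Tet tcKO cones (97.2 to 98.2%) and 20.9% of amacrine nuclei (15.8 to 26.8%). The intervals of the first and second overlapped, and both were far from the third. Arr3 was held by 62.0% of cone-annotated nuclei, 50.4% of matched rods, 86.0% of Tet tcKO cones and 36 of the 225 amacrine nuclei. In the same order, Gnat2 was held by 9.60%, 7.20%, 39.0% and 1.78%, and Cngb3 by 17.6%, 16.8%, 87.6% and 13.3%. The share with Cngb3 in cone-annotated nuclei was thus close to that in amacrine nuclei. For rod genes the Tet tcKO cones stood below the cone-annotated nuclei: Pde6a was held by 70.8%, 56.0%, 26.5% and, of the 225 amacrine nuclei, 45, and Nrl by 41.6%, 34.0%, 20.7% and 12.4%. Glb1l2 was held by 20.8%, 12.4%, 6.21% and 2.67%, and Tafa4 by 2.80%, 1.60%, 2.50% and 0.444%. Unthinned, Arr3 was found in 91.3% of cone-annotated nuclei, Pde6a in 96.2%, Glb1l2 in 56.6% and Tafa4 in 12.8%.

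Across all genes the cone-annotated nuclei and the matched rods were close. Of the 4792 genes that reached 50 CPM in cone-annotated nuclei, matched rods or both, 45 (0.939%) were higher by 2-fold or more and 21 (0.438%) lower by 2-fold or more. The median log2 ratio was 0.05, and the 5th and 95th percentiles were -0.59 and 0.68. For 3 genes the whole interval lay above 2-fold (Aqp9, Tafa4 and Ccdc126) and for 3 below it (Gm4117, Ndrg2 and Myh13). Of 857 genes above 200 CPM, 1 reached 2-fold. How many genes pass a fold depends on counting error, and the counts grew where nuclei were fewer or the filter on low genes was lifted.

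**Figure D3:**
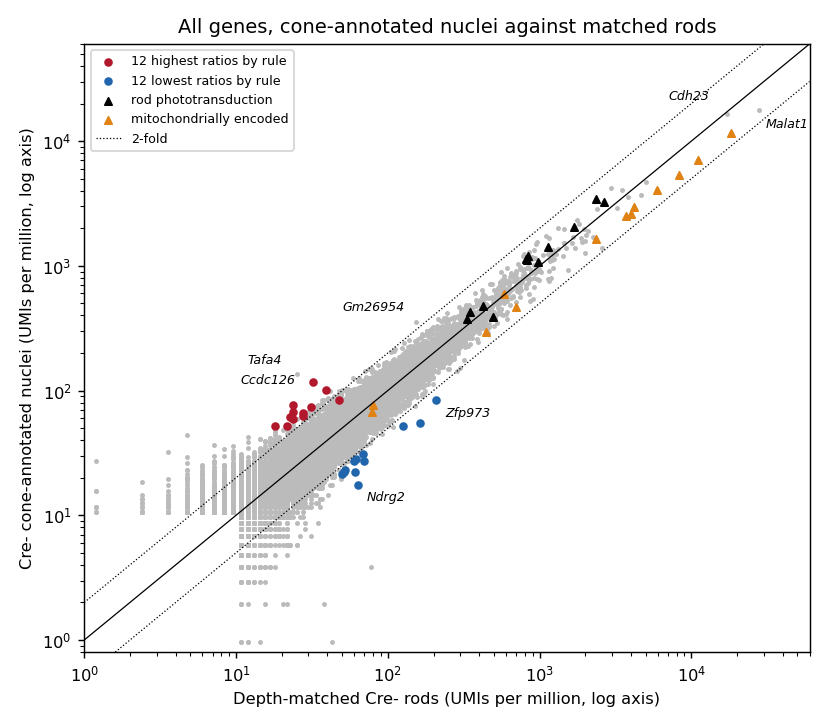
Level of each gene in cone-annotated nuclei (vertical) against its level in depth-matched rods (horizontal), both in UMIs per 1000000 on log axes, for genes that reach 10 CPM in either population and have a UMI in both, with the line of equal levels and dotted lines at 2-fold. Points close in on the line of equality as the level rises, rod phototransduction genes lie on or just above it except Slc24a1, and all but 1 of the mitochondrially encoded genes lie below it.

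The same count was taken against other populations, and the lowest shares were those against rods. Against all rods in the range of totals 0.844% of genes differed by 2-fold or more, and against single rod clusters the share ran from 1.26% (cluster 19) to 22.1% (cluster 40, which had 131710 UMIs). Shallow populations carry more counting error, so populations of like depth are the better guide. Against bipolar nuclei of cluster 3, which had 899171 UMIs, the share was 13.5%, and against retinal ganglion cells of cluster 8, with 644691 UMIs, it was 34.0%. Rods of cluster 26, with 744536 UMIs, gave 1.27%. Rod clusters with nearly equal UMIs still gave unlike shares: cluster 20 (588402 UMIs) 1.42% and cluster 21 (584222 UMIs) 7.71%. Cluster 38 (497962 UMIs) gave 5.07% and cluster 16 (508220 UMIs) 4.13%. Against Tet tcKO cones the share was 7.57% of 5230 genes, with 173 (3.31%) higher and 223 (4.26%) lower in cone-annotated nuclei. That last comparison is also one between libraries and genotypes, which cannot be told apart from it.

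**Figure D4:**
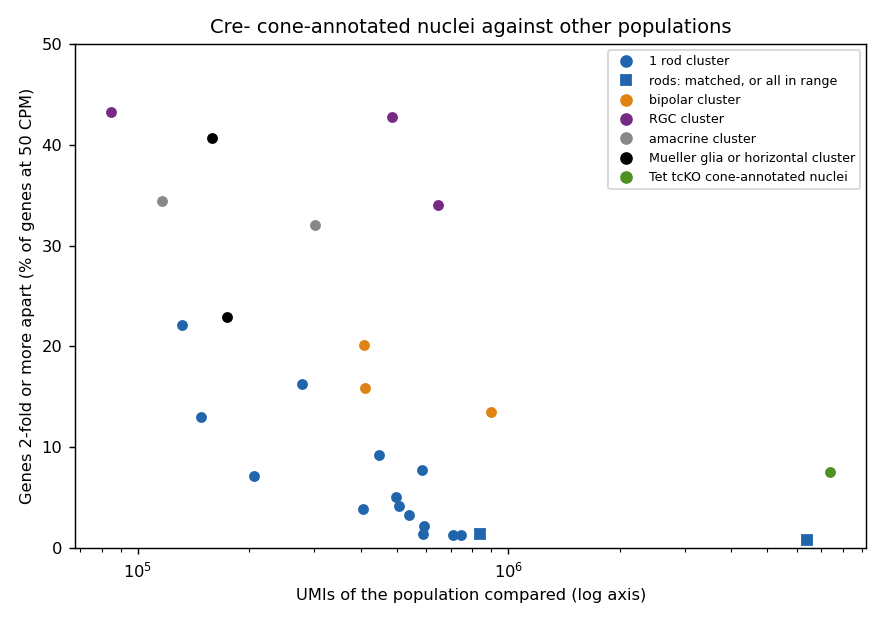
Percent of genes at 50 CPM or more that differ by 2-fold or more between Cre- nuclei annotated as cones and each other population, plotted against the summed UMIs of that population (log axis). The rod clusters with the most UMIs (710469 and 744536) fall at 1.26% and 1.27%, bipolar cluster 3 (899171 UMIs) at 13.5% and Tet tcKO cones at 7.57%. Rod clusters 20 and 21, with nearly equal UMIs (588402 and 584222), fall at 1.42% and 7.71%.

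Genes with the highest ratios, ranked after the nucleus with most UMIs of each gene had been left out in both groups, were mostly low in level. Ccdc126 (chr6:49294231-49318697, plus strand) led them. It was counted 0, 0 and 4 times per nucleus (lowest, median and highest) and was found in 89 of 265 cone-annotated nuclei and 25 of 265 matched rods. Its level was 116 CPM (96.5 to 139) against 32.3 (21.3 to 46.9), a log2 ratio of 1.85 (1.24 to 2.51), and above the highest rod cluster at 72.5 CPM. The other genes of this rank were Sem1, a small proteasome subunit (1.55), Mok, a kinase related to MAP kinases (1.68), Macir (1.48), the long non-coding RNA Gm20732 (1.43), Cep43, a centrosome and basal body protein (1.31), Lamtor3, a subunit of the lysosomal Ragulator complex (1.28), Cnot6l, a deadenylase (1.35), Ndel1, a dynein regulator (1.26), Khdc4, an RNA-binding protein (1.25), Cept1, a phospholipid synthase (1.20), and Hbb-bs, a beta-globin (0.82). The ratios printed, here and for the lowest genes, are over all nuclei and so do not follow the rank. Hbb-bs had 87 UMIs against 40, and its level over rod clusters ran from 18.6 to 1810 CPM. Sem1 (52.4 CPM, rod clusters up to 61.1) and Cept1 (63.0 CPM, up to 63.1) also lay inside the range of rod clusters. Of these 12 genes 7 overlap a gene on the other strand, and the sources used here do not give the strand setting of the counting. The share of all genes with such an overlap is not given here, so the 7 do not set these genes apart from others.

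Above 200 CPM 1 gene passed 2-fold, the long non-coding RNA Gm26954, which was named after its values were seen. Gm26954 was counted 0, 1 and 9 times per nucleus against 0, 0 and 4 in matched rods, and was found in 194 against 94 of 265 nuclei. It stood at 353 CPM (318 to 391) against 153 (128 to 182), a log2 ratio of 1.21 (0.91 to 1.51), with the highest rod cluster at 221 CPM and Tet tcKO cones at 107 CPM. It lies at chr5:14746999-14773678 on the minus strand, within the span of Pclo on the other strand, and Pclo, which encodes a scaffold of the synaptic active zone, was lower by a log2 ratio of -0.29 (-0.48 to -0.10). Of the 45 genes higher by 2-fold, 38 stood above every rod cluster, and of the 21 lower, 13 stood below every rod cluster. Over all 4792 genes the shares were 15.6% and 5.43%. Since the 45 and the 21 were picked by their ratio over rods of these same clusters, these counts describe them and test nothing.

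Genes with the lowest ratios were led by Ndrg2 (chr14:52142588-52158469, minus strand), a gene of the N-myc downstream regulated family that is prominent in glia. It was found in 18 of 265 cone-annotated nuclei, once in each, and in 48 of 265 matched rods. Ndrg2 stood at 17.5 CPM (10.3 to 27.6) against 63.3 (47.4 to 82.8), a log2 ratio of -1.86 (-2.72 to -1.06), and below every rod cluster, the lowest of which was at 39.4 CPM. Zfp973, a zinc finger gene, stood at 83.4 CPM (66.7 to 103) against 209 (179 to 243), a log2 ratio of -1.33 (-1.72 to -0.95). It too lay below every rod cluster (134 CPM at the lowest). The others were B230307C23Rik (-1.45), Atad5, which unloads the replication clamp (-1.35), Gm11906 (-1.27), Nr1h2, the oxysterol receptor LXR beta (-1.23), Pgls, an enzyme of the pentose phosphate pathway (-1.20), Dus1l (-1.18), Pag1, a membrane adaptor (-1.14), Gm31615 (-1.14), Itgb5, an integrin subunit (-1.13), and Myh13, a myosin heavy chain (-1.56). In Myh13, 1 matched rod held 38 of the 136 UMIs. B230307C23Rik, Atad5, Pgls, Gm31615, Itgb5 and Myh13 lay inside the range of rod clusters, and the rest of the lowest genes below it. Of these 12 genes 9 overlap a gene on the other strand, again without the share over all genes to set beside them. Dus1l turned to 0.80 among the pairs within 5% of each other in total.

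Of the 4589 genes with 50 or more UMIs in cone-annotated nuclei, 26 had over 10% of them in 1 nucleus (20 of 3628 in matched rods). The 5 highest shares were those of Aqp9, Tafa4, Acaa2, Fgd1 and Foxp2, in 5 different nuclei. Aqp9 (chr9:71017928-71075964, minus strand), an aquaglyceroporin, had 80 of its 82 UMIs (97.6%) in a nucleus with a total of 5625, and the whole Cre- library held 87. Matched rods held 0, so with a floor of 3 counts the log2 ratio was at least 4.47, a value that 1 nucleus decides. Acaa2, a mitochondrial thiolase, had 29 of 58 UMIs in 1 nucleus, Fgd1, an exchange factor for Cdc42, 32 of 71, and Foxp2, a transcription factor, 19 of 50.

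Apart from such nuclei most genes varied little more than counting does, but Malat1 and the mitochondrial genes did not. The summed mitochondrial UMIs had a variance 15.9 times that of counting (45.3 in matched rods). Over 902 genes with 200 or more UMIs, the variance between nuclei divided by the variance that counting gives had a median of 1.05 (5th to 95th percentile 0.90 to 1.36) and exceeded 2 in 21 genes (2.33%). In matched rods the median was 1.09 over 632 genes, and 16 (2.53%) exceeded 2. Arr3 (0.97), Glb1l2 (0.96), Nrl (1.11) and Pde6a (1.21) varied about as counting does. The genes with the largest spread were Bcr (17.0, with 54 of 254 UMIs in 1 nucleus), Malat1 (9.03), Tshz2 (8.61) and mt-Co3 (6.54). In bipolar cluster 3 5.66% of genes exceeded 2, and in ganglion cells of cluster 2, whose median total was 4092, 45.1% did. Cluster 2 had 111 nuclei, so the cut of 200 UMIs admits genes with more UMIs per nucleus there, and the shares are not on an equal footing.

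Transcripts shared by both photoreceptor types, and those of the photoreceptor's specialised structures, stood at or slightly above the level of rods, each list summing to more than in any rod cluster. For the 20 pan-photoreceptor genes the median log2 ratio was 0.27, and they summed to 9338 CPM against 7886, with the highest rod cluster at 8583. Of the 19 at 50 CPM, 9 stood above every rod cluster and 1 below, beside 15.6% and 5.43% of all 4792 genes at 50 CPM. Aipl1, a chaperone for phosphodiesterase (0.73, 0.41 to 1.04), and Prph2, a structural protein of the disc rim (0.53, 0.40 to 0.65), were at the upper end, and Tulp1, which acts in transport to the outer segment, was lower (-0.34, -0.47 to -0.21). The 18 genes of the ribbon synapse had a median of 0.10 and summed to 8327 CPM, with the highest rod cluster at 7783. Stx3, the syntaxin of ribbon terminals, stood at 286 CPM against 180 (0.66, 0.38 to 0.96). The 16 genes of the connecting cilium and outer segment scaffold had a median of 0.23 and summed to 11916 CPM, with the highest rod cluster at 11782 and Cep290, a protein of the transition zone, at -0.55 (-0.69 to -0.42). None of these members reached 2-fold.

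**Figure D5:**
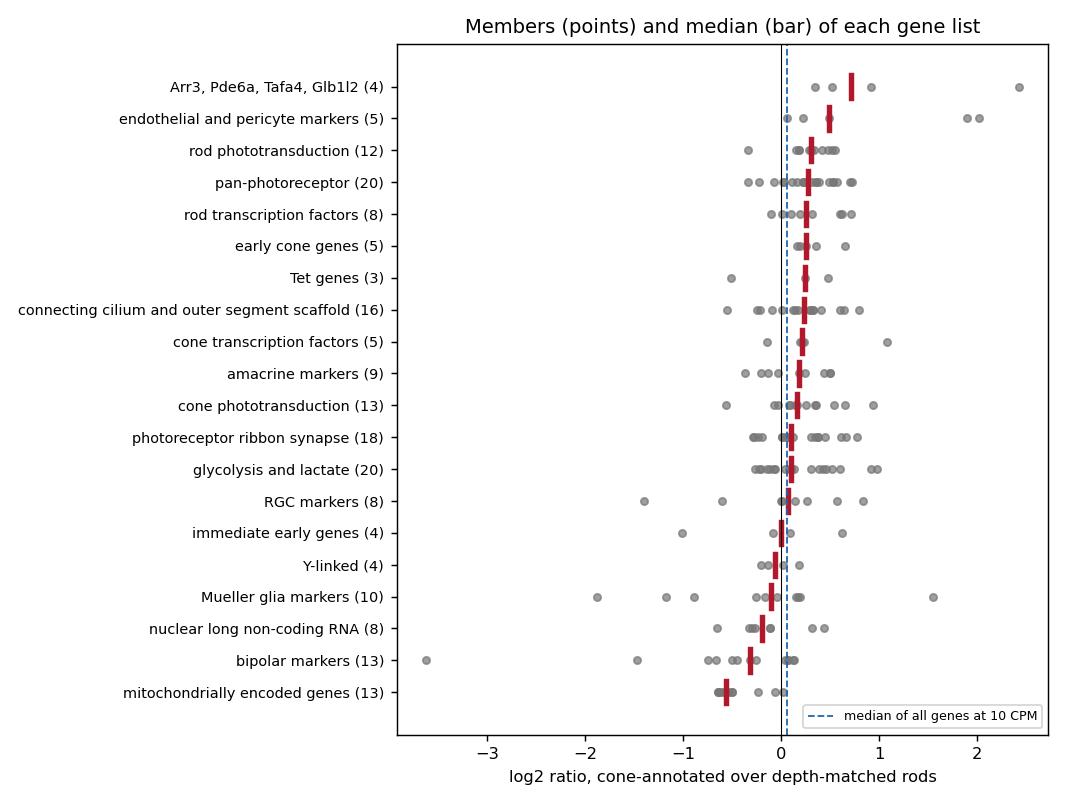
Log2 ratio of cone-annotated nuclei over matched rods for the members of each gene list, 1 point per gene at 10 CPM or more, with the list's median as a bar and the median of all genes as a dashed line. Lists with fewer than 3 such genes are left out. The rod list (median 0.30) sits above the cone list (0.16), and mitochondrially encoded genes (-0.57) sit lowest of the lists shown.

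The genes with most UMIs in cone-annotated nuclei were, in order of counts and not corrected for length, led by Malat1 and Cdh23. Cdh23, a cadherin, stood at 16348 CPM against 17186 (-0.07, -0.10 to -0.04), and Rpgrip1, a ciliary scaffold protein, had a log2 ratio of -0.09 (-0.15 to -0.03). Cadm2, a cell adhesion molecule, stood higher, at 4223 CPM (4099 to 4351) against 2931 (2817 to 3050), a log2 ratio of 0.53 (0.46 to 0.60) and above the highest rod cluster at 3727 CPM. Nrxn3, a presynaptic adhesion protein, was higher by 0.23 (0.16 to 0.29).

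Malat1 and the mitochondrially encoded transcripts were both lower in cone-annotated nuclei. Malat1, a non-coding RNA kept in the nucleus, was counted 11, 63 and 198 times per nucleus (lowest, median and highest) in cone-annotated nuclei and 20, 80 and 266 times in matched rods. It made up 1.76% of UMIs against 2.77%, a log2 ratio of -0.65 (-0.68 to -0.62), and rod clusters ran from 1.79 to 4.35%. Meg3, another nuclear non-coding RNA, was lower by a log2 ratio of -0.33 (-0.39 to -0.26). The 13 mitochondrially encoded genes made up 3.94% of UMIs against 5.96%, with rod clusters from 4.39 to 13.8%, and their median log2 ratio was -0.57. Among them mt-Co3, a subunit of cytochrome oxidase, was counted 2, 42 and 152 times per nucleus against 9, 48 and 210, at 11701 CPM against 18281 (-0.64, -0.68 to -0.61). Of the 13, 11 lay below every rod cluster, beside 5.43% of all 4792 genes at 50 CPM, and mt-Atp8 was at 0.02 (-0.16 to 0.19). Against rods of cluster 9, which was the deepest and lowest in mitochondrial share, the median of the 13 genes was -0.17. What part these shares have in the other differences was not tested.

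Glucose and lactate handling differed in a few members. The 20 genes listed had a median log2 ratio of 0.10, and 0 passed 2-fold. Slc2a1, the glucose transporter GLUT1, stood at 101 CPM (82.4 to 122) against 51.4 (37.2 to 69.2), a log2 ratio of 0.97 (0.45 to 1.52), and Slc16a1, the monocarboxylate transporter MCT1, at 92.1 CPM (74.5 to 113) against 49.0 (35.2 to 66.5), or 0.91 (0.37 to 1.48). Both lay inside the range of single rod clusters, which reached 122 CPM for Slc2a1 and 115 CPM for Slc16a1. Ldha, lactate dehydrogenase A, was at 378 CPM against 275 (0.46, 0.22 to 0.70) and above every rod cluster, the highest of which was at 368 CPM. Tet2 had a log2 ratio of 0.48 (0.07 to 0.90), Tet1 of -0.51 (-1.18 to 0.15) and Tet3 of 0.24 (-0.06 to 0.55).

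The summed markers of 9 other cell types lay inside the range of single rod clusters for 6, below it for ganglion cells and pigment epithelium, and above it for amacrine cells, by 1345 CPM against 1344. The 13 bipolar genes had a median log2 ratio of -0.32 (0.01 against all rods in range) and summed to 3646 CPM against 4166. Trpm1, the channel of ON bipolar cells, stood at 538 CPM (494 to 585) against 902 (839 to 969), a log2 ratio of -0.75 (-0.91 to -0.59) and below every rod cluster. Prkca of the same list stood at 1512 CPM against 1445 (0.07, -0.04 to 0.17) and above every rod cluster. Of the 9 bipolar genes at 50 CPM, 1 stood above every rod cluster and 2 below, beside 15.6% and 5.43% of all 4792 genes. The 10 amacrine, 10 ganglion cell and 10 Müller glia genes, counted where they reached 10 CPM, had medians of 0.18, 0.07 and -0.10. The 7 endothelial and pericyte genes summed to 289 CPM against 195, with rod clusters from 155 to 520 CPM. Of these, Flt1, a receptor for vascular endothelial growth factor, had 171 UMIs against 99, Cldn5, a tight junction protein, 20 against 4, Rgs5, a pericyte gene, 23 against 5, and Kcnj8 0. The 7 microglia genes summed to 44.6 CPM against 51.4, with Tmem119 and C1qb at 0 in cone-annotated nuclei, the 4 astrocyte genes to 18.4 against 37.1, the 6 pigment epithelium genes to 48.5 against 59.8, and the 5 horizontal cell genes to 59.1 against 84.9. The 4 Y-linked genes (median -0.06) and the 13 immediate early genes (0.00 over the 4 at 10 CPM) were close to 0, with Jund, an AP-1 member, lowest of the latter at -1.02.

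Xist, which is transcribed from the inactive X of females, and Y-linked transcripts were counted in the same nuclei. Xist was found in 97.7% of cone-annotated nuclei (95.1 to 99.2%), with counts of 0, 7 and 21, and a Y-linked UMI in 54.3% (48.1 to 60.4%). Both were found in 142 of 265 nuclei, or 53.6% (47.4 to 59.7%). In matched rods the share with both was 49.1% (42.9 to 55.2%), in bipolar nuclei of cluster 3 45.5%, in ganglion cells of cluster 2, which were as deep, 14.4%, and in amacrine nuclei 8.68%. Xist and Y-linked transcripts come from animals of different sex. What part free RNA and more than 1 nucleus per barcode have in the levels above was not tested. When the 10% of Cre- nuclei most like simulated doublets were left out, 140 cone-annotated nuclei remained, a loss of 47.2% beside 43.8% of the matched rods.

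Rod genes stood higher and mitochondrial genes lower than in matched rods at every depth. The cone-annotated nuclei were split by total into 3 groups of 89, 88 and 88, with medians of 2348, 3744.5 and 5643 UMIs, and each was set against its own paired rods (2347, 3113 and 4027). In the shallowest group, where the pairs were closest, the median log2 ratio was 0.32 for the cone list, 0.38 for the rod list and -0.45 for the mitochondrial genes. In the deepest group these were 0.39, 0.40 and -0.59, and in the middle group 0.01, 0.22 and -0.53. The 9 cone genes stood at 634, 634 and 654 CPM from the shallowest to the deepest group. Over 4 classes of gene length of 1195 genes each, from the shortest to the longest, the median log2 ratio was 0.00, 0.05, 0.11 and 0.02.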

How the data were processed

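The authors captured nuclei with the PIPseq kit v4.0, counted UMIs per gene with pipseeker 3.3.0 on GRCm39 (per the labels), removed background with Cellbender and clustered and annotated in Monocle3. The sources used here do not say whether the deposited matrix precedes or follows Cellbender, or how doublets were treated. The deposited counts, whole UMI counts per gene and nucleus, were used with the deposited cluster and cell type entries. The deposited percent of mitochondrial counts per nucleus was used as given (its median was 7.84% in cone-annotated nuclei and 9.18% in matched rods), and its gene set is not stated. The authors' size factor ratio and their table of average expression per genotype (another deposited score) were not used.

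Counts were summed over nuclei and divided by all UMIs. Ratios carry exact conditional Poisson intervals, shares Clopper-Pearson intervals, and 95% is the level of each. A gene counted toward a 2-fold difference at 50 CPM or more in either group, and toward a list median at 10 CPM. Each cone-annotated nucleus, from the deepest down, took the nearest unused rod. Named were the 4 markers, the cone and rod lists, the 12 highest and 12 lowest ratios without each gene's highest nucleus, the 5 genes most concentrated in 1 nucleus and the 10 with most UMIs. The members and gene lists were chosen with earlier results of these data known. There were 24 lists, and 2 of their members are not reported here by name. Coordinates are from GENCODE on GRCm39. The depth range of the 265 nuclei was 679 to 8084 UMIs, and the ratio and interval steps were tested on simulated data. The alternatives were other rod sets, filters, scalings (edgeR 4.0.16 TMM and RLE), thinning, removal of likely doublets, and, chosen after seeing the data, pairs within 5% and rods of cluster 9. Python 3.11.15, numpy 2.4.6, scipy 1.17.1, pandas 2.3.3 and scikit-learn 1.9.0 were used.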

Additional observations from a re-analysis of the deposited data

How the results depend on the processing

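The number of genes 2-fold or more higher than in matched rods was 45 and the number lower 21. With all rods in range the number higher was 17, with 2 matched rods per nucleus 28 (13 lower), with each gene counted once per nucleus 87, after thinning to 1000 UMIs 354 (203 lower), without likely doublets 167 (97 lower), with the filter at 10 CPM 486 (356 lower) and with no filter 1125 (832 lower). With the alternatives chosen after seeing the data it was 452 (384 lower) in 82 pairs within 5%, and 43 genes were lower against rods of cluster 9. The settings with larger counts hold fewer UMIs or lower genes. TMM and RLE scaling gave 37 and 36 higher and 25 lower in both. A list median has no counting interval of its own. It was set against the medians of its members' lower and upper bounds, which are about as wide as those of a single gene (-0.21 to 0.64 for the cone list). Of 240 list medians under an alternative 229 stayed within these wide bounds and 11 fell outside. Those were, against all rods in range, bipolar genes (0.0079) and mitochondrial genes (-0.88), with each gene once per nucleus, cone transcription factors (-0.10), rod phototransduction (-0.20), rod transcription factors (-0.023), pan-photoreceptor genes (-0.0082), ribbon synapse genes (-0.15), the 4 markers (0.24) and mitochondrial genes (-0.27), without likely doublets, Tet genes (0.60), and against rods of cluster 9, mitochondrial genes (-0.17). Of 751 single-gene ratios 662 stayed within their interval, 88 moved and 1 turned, Dus1l (0.80 in pairs within 5%). In the pairs within 5% the rod list stood at 0.37 and the cone list at 0.26. After thinning to 1000 UMIs the cone list stood at 0.46, above the rod list under any setting (0.37 at most). The order of the 2 lists thus depended on the processing. Shares depended on depth: unthinned, 91.3% of nuclei held Arr3, 96.2% Pde6a, 56.6% Glb1l2 and 12.8% Tafa4, and at 500 UMIs 34.3% held Arr3, 45.3% Pde6a and 12.8% Glb1l2. No paired analysis was possible because there is 1 library per genotype and nuclei were compared within 1 library.

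Precision rests on counting, and the intervals of genes under 50 CPM are wide. With 1 library per genotype, differences between animals could not be measured. The deepest cone-annotated nuclei had no rod of the same depth, and the 82 closest pairs reach up to a total of 2931 UMIs.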

Other observations

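Cre- nuclei with more cone transcripts than any cone-annotated nucleus lay elsewhere in the annotation, and were looked up after the values of the cone-annotated nuclei had been seen. Of 10 Cre- nuclei with 10 or more UMIs of the 9 cone genes, 0 were annotated as cones, 8 as bipolar cells, 1 as a rod and 1 as Müller glia. Clusters 22 and 41, both annotated as bipolar, held 8 and 2 Cre- nuclei beside 214 and 188 of the Tet tcKO library. The 9 genes stood at 3167 CPM (2318 to 4224) in the Cre- nuclei of cluster 22. In those of cluster 41 they stood at 5029 CPM, with 13 of 18 such UMIs in 1 nucleus. Clusters 3, 4 and 7, also annotated as bipolar, held nuclei with 10 or more such UMIs too (highest 15, 13 and 13). All 10 Cre- nuclei of clusters 22 and 41, a set other than the 10 nuclei above, had 18105 UMIs together. Of these, 113 were of Arr3, or 6241 CPM (5144 to 7504), 33 of Cngb3, or 1823 CPM, and 17 of Opn1mw, or 939 CPM. Gnat2 stood at 442 CPM, Pde6c at 608 CPM and Opn1sw at 331 CPM, while Rxrg and Gngt2 had 0 UMIs. Nrl stood at 331 CPM and Gnat1 at 829 CPM in them.

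The rod annotated nucleus lay in cluster 45 and held 27 UMIs of the 9 genes. The 22 Cre- nuclei of that cluster held 31 together (1655 CPM), so this 1 nucleus decides the level of the cluster. Cluster 46, which holds the cone-annotated nucleus outside cluster 11, had 328 nuclei of the Tet tcKO library.

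A list of 7 cone genes put together here (Thrb, Rxrg, Gngt2, Opn1sw, Gnat2, Dct and Pde6c) had 5 members at 10 CPM. Their median log2 ratio over matched rods was 0.25. Gngt2, Opn1sw, Gnat2 and Pde6c also belong to the cone phototransduction list, and the paper counts Opn1sw and Gnat2 among mature cone transcripts. The list therefore does not measure an early cone programme apart from the cone list. The 8 nuclear long non-coding RNAs had a median of -0.19, with Xist at 0.44 (0.33 to 0.54).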
